A study of Mus musculus with 4 samples.

Results

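Cytosolic ribosomal protein genes were taken from liver arrays of mice lacking Gdown1, the RNA polymerase II binding protein encoded by Polr2m, and of control mice. A gene was a member when its symbol in the authors' deposited table named a protein of the small or large ribosomal subunit, of the stalk or the laminin receptor protein Rpsa, with pseudogene symbols left out. This gave 85 of 29432 genes, covered by 99 probe sets, and the probe set with the highest mean over the arrays stood for each gene. The groups were FF, the control, and KO, the Gdown1 knockout, with 2 arrays each from liver of untreated C57BL/6 mice aged 8 weeks and killed around midday. The authors' deposited table names the sides f/f and Alb-cre. Cre driven by the albumin promoter acts in hepatocytes, so other liver cells would keep the gene, and no group is labelled as carrying Cre alone. The labels call the arrays of a group biological replicates. All values are log2 values made with RMA, which sets the arrays to a common distribution, so only differences relative to other genes can be read.

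Each ribosome joins a small subunit, which reads the mRNA, to a large subunit, which forms the peptide bond. Their proteins are made in nearly equal amounts, and in vertebrates the mRNAs share a pyrimidine tract at the start, which lets mTORC1 and the RNA-binding protein Larp1 set their translation together. Rpl5 and Rpl11 join the ribosome with an RNA of the large subunit, and when free they can bind Mdm2, the ubiquitin ligase of p53. Hepatocytes make large amounts of secreted protein and need many ribosomes.

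The starts of the genes that the results turn on are shown first, to set the one member that passed the test beside members with lower, higher or level values. Sequences are from RefSeq (GRCm38.p6), run from 40 bases before to 20 bases after the first start listed for the gene, and have pyrimidine runs of at least 6 bases in capitals.
Rps27l (chr9:66946046-66946105, plus strand): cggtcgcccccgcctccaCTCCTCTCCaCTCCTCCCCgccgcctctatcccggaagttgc
Rps27 (chr3:90213629-90213688, minus strand): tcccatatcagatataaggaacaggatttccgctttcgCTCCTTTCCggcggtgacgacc
Rpsa (chr9:120127726-120127785, plus strand): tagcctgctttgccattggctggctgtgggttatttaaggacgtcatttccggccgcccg
Rps12 (chr10:23787190-23787249, minus strand): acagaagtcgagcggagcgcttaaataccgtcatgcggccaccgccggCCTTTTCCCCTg
Rps24 (chr14:24490638-24490697, plus strand): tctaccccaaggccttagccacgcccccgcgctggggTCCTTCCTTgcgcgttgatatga
Rpl6 (chr5:121204461-121204520, plus strand): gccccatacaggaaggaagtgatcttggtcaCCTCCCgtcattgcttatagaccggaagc
Rpl18 (chr7:45718031-45718090, plus strand): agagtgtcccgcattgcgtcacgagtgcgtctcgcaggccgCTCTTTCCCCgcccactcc
Rpl4 (chr9:64173347-64173406, plus strand): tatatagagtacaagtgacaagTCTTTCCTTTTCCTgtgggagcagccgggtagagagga
Rps6 (chr4:86857348-86857407, minus strand): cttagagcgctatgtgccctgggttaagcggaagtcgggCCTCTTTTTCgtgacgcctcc
The longest run had 9 bases in Rps27l, 14 in Rpl4 and 5 in Rpsa. A promoter was found for 63 of the 85 genes. A run of at least 8 pyrimidines on the transcribed strand, from 20 bases before to 50 after the start, stood in 46 of the 63, or 73%, against 25.4% of 27025 promoters of all genes. The shorter CTTTCC, which such a run can contain, was in 46% of member promoters on either strand and in 26.3% of all, counted from 250 bases before to 50 after the start. CCGGAAG, the core bound by ETS factors such as GABPA, was in 39.7% against 9.12%. GGGCGG, a GC box, was in 58.7% against 35.9%, AAGATGGC, a YY1 core, in 6.35% against 2.88%, and TATAAA in 11.1% against 14.2%. These are matches of letters in a fixed window and no evidence of binding.

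Before the results, 2 properties of the probe sets need stating. Background was gauged from 1127 olfactory receptor genes, a family used by the nose, and 95% of them had a mean level under 2.82. Of the 85 ribosomal protein genes, 66 had a mean above this guide, 19 lay at or below it, and only 27 had a mean above 6. Members whose own probe set showed little signal included Rps26, at 1.67 and 1.90 in FF and 1.73 and 1.76 in KO, and Rps16, at 2.25 and 2.60 in FF and 2.18 and 2.28 in KO. Rpl35, Rpl10l and Rpl3l also lay at the bottom, with means of 2.04, 1.99 and 2.29. Rps26, Rpl35 and Rps16 are parts of every ribosome, whereas Rpl10l is known from testis and Rpl3l from muscle. A further 32 probe sets carried the symbol of a member together with other symbols, often a pseudogene or a small nucleolar RNA, and 30 of these lay above the guide. They were not used for the members.

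The second property is where the probe sets lie. For 99.6% of all named probe sets with a RefSeq position, the commonest chromosome among the 5 neighbours by number on each side was that of the gene. In 6 members, Rpl12, Rpl27, Rpl27a, Rpl41, Rps6 and Rpsa, the brighter probe set chosen by the rule was numbered among genes of another chromosome. Rps6 lies on chromosome 4, and its chosen probe set, at 10.57 and 10.53 in FF and 10.36 and 10.21 in KO, stood among genes of chromosome 2. The Rps6 probe set numbered on chromosome 4 lay at 2.47 and 2.70 in FF and 2.61 and 2.43 in KO, under the guide on every array. Rpsa lies on chromosome 9, and its chosen probe set stood among genes of chromosome 3. All 6 members had a dimmer probe set numbered on their own chromosome. Ribosomal protein genes have many processed copies in the mouse genome, and whether these probe sets read such a copy or the gene itself was not tested.

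**Figure D1:**
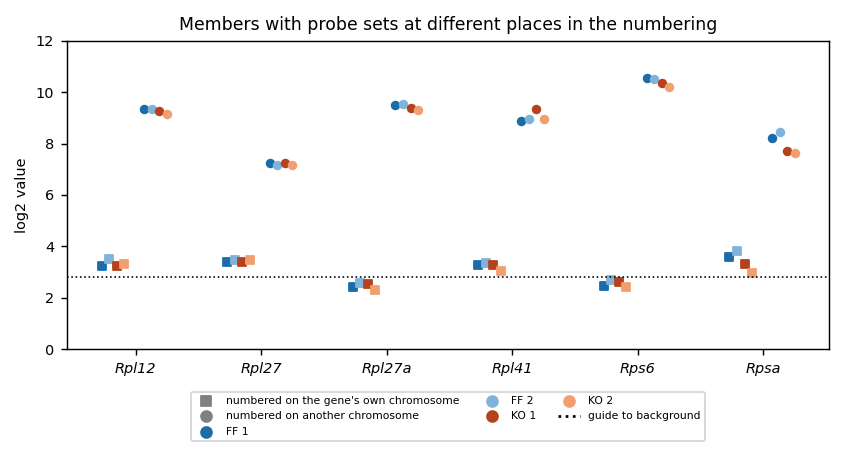
Log2 values on each array (colours) of the probe sets of 6 ribosomal protein genes. Circles are the chosen probe sets, numbered among genes of another chromosome, and squares those numbered on the gene's own chromosome; the dotted line is the background guide at 2.82. All circles lie above 7 and all squares below 4.

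The design asks how the liver's transcripts change without Gdown1. The targeted gene, Polr2m (chromosome 9, 71478437 to 71485983), was at 7.35 and 7.38 in FF and 6.35 and 6.18 in KO, a fall by 1.10 ± 0.12 on the log2 scale (SE, limma adjusted p = 0.0215). The sources used here do not say whether its probes lie in the deleted part. Hepatocyte markers were present, with Alb between 12.74 and 12.86 on all arrays. Pearson's r across genes, which are not independent, was 0.991 between the FF arrays, 0.991 between the KO arrays and 0.977 to 0.982 between an FF and a KO array. Over all genes 522 passed (limma adjusted p under 0.05), and the smallest called log2 difference was 0.72.

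Among the ribosomal protein genes 1 member rose and 0 fell. The background of calls was 1.77% of all genes in either direction, 0.996% higher and 0.778% lower in KO. At an unadjusted limma p under 0.05, 14 of the 85 members were lower and 3 higher, against backgrounds of 7.60% lower and 9.38% higher. The member that rose was Rps27l, a close paralog of Rps27 that is known in human cells as a gene induced by p53. No other member passed the test.

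Rps27l (chromosome 9, 66944624 to 66949522) was at 5.36 and 5.22 in FF and rose to 6.11 and 6.04 in KO. Both KO values lay above both FF values. The rise was 0.78 ± 0.12 (SE, 95% interval 0.48 to 1.08), or 1.72-fold, with a limma adjusted p of 0.0463. In the authors' deposited table Rps27l had log2 averages of 6.51 in f/f and 7.17 in Alb-cre, a 1.58-fold rise. The call lay close to the threshold: among other settings it ended with cyclic loess normalization (limma adjusted p = 0.0505) and when every probe set was tested (limma adjusted p = 0.120). Without any single array the value stayed between 0.71 and 0.85 and the limma adjusted p lay between 0.203 and 0.359.

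Up to 20 bases past its first listed start, the Rps27l promoter held 2 GC boxes (GGGCGG) and 1 ETS core (CCGGAAG), shown in capitals because they are the matches found there. It had no match to the p53 half-site in this window. With windows up to 50 bases past the start, 4.76% of member promoters and 8.37% of all promoters hold one. The printed window lies inside the gene span given above. Sequence before that span and the rest of the gene, introns included, were not searched.
Rps27l (chr9:66945836-66946105, plus strand): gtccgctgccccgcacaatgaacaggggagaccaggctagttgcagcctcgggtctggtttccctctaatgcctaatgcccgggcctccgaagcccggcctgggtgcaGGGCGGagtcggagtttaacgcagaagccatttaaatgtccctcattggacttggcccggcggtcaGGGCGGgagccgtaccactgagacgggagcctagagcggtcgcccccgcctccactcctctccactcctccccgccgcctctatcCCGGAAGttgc

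Its paralog Rps27, a small subunit protein, had values in the other direction. Rps27 was at 5.005 and 4.68 in FF and 4.25 and 4.46 in KO, with no overlap between the groups. The difference was -0.49 ± 0.16 (SE, limma adjusted p = 0.202) and did not pass. A brighter probe set listed for both Rps27rt and Rps27 lay at 8.76 and 8.65 in FF and 8.51 and 8.48 in KO, a difference of -0.21. The difference between the paralogs was not tested.

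**Figure D2:**
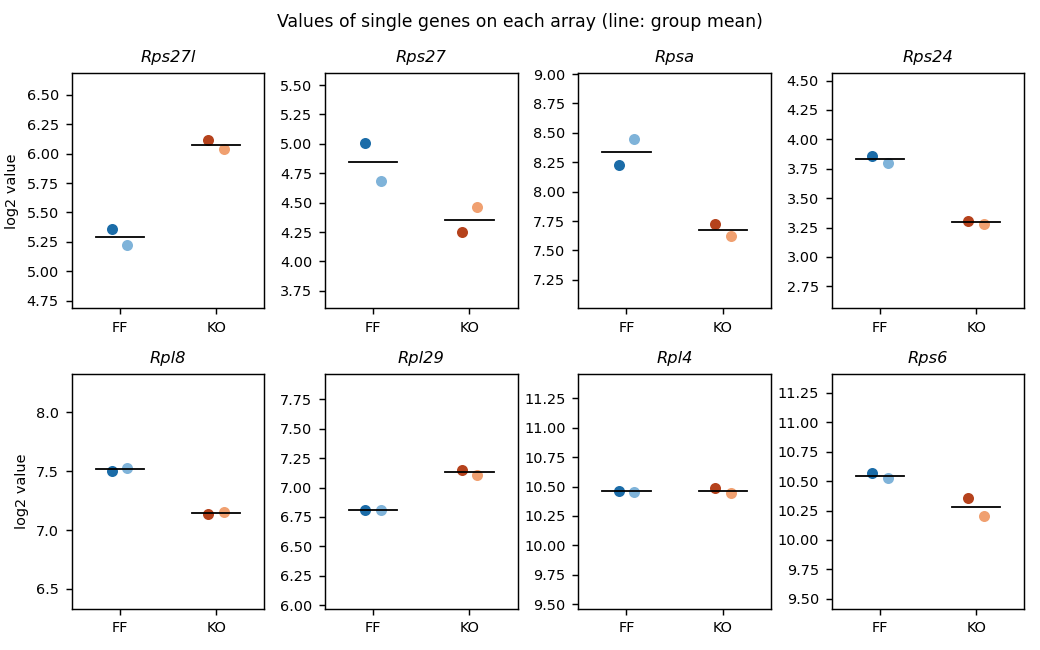
Log2 values of 8 ribosomal protein genes on the FF (blue) and KO (orange) arrays, replicate 1 dark and replicate 2 light, with lines at the group means; every panel spans 2 log2 units. Rps27l lies higher in KO by 0.78, Rpsa lower by 0.66, and Rpl4 is level.

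The members as a group lay slightly lower in KO. The median log2 difference of the 85 was -0.12, with quartiles of -0.29 and 0.07, beside a median of -0.02 over all genes tested. By mean, 57 members were lower and 28 higher in KO, where 54.0% of all genes were lower. Both KO arrays lay below both FF arrays in 32 members, or 37.6%, against a background of 25.0%, and above both in 8, or 9.41%, against 21.6%. Set against the FF mean, KO array 1 had a median of -0.09 and KO array 2 of -0.15. The medians of FF arrays 1 and 2 were -0.0043 and 0.0043. No test of the group was made.

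**Figure D3:**
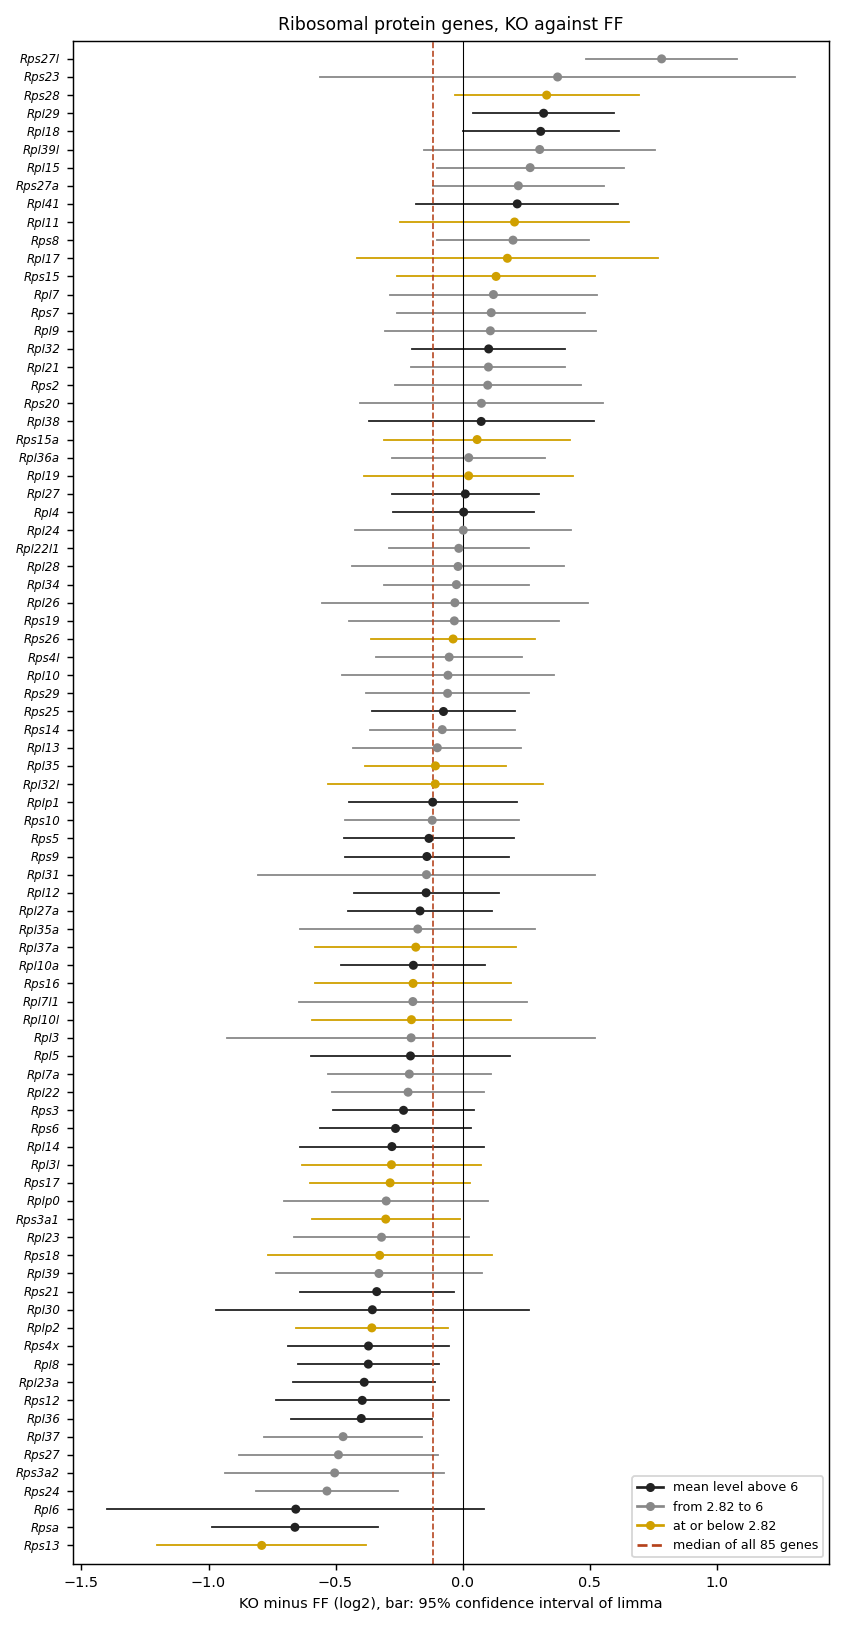
KO minus FF difference (log2, horizontal axis) of 83 of the 85 ribosomal protein genes with its 95% limma confidence interval, black for a mean level above 6, grey between the guide of 2.82 and 6, yellow at or below the guide. The dashed line is the median of all 85, -0.12, and Rps27l at 0.78 stands at the top.

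Members with more signal were also described apart. Of the 27 members with a mean level above 6, 20 were lower in KO and 7 higher by mean, with a median of -0.19. The 4189 other genes above this level had a median of 0.04, and 45.2% of them were lower by mean. In 14 of the 27 members, or 51.9%, both KO arrays lay below both FF arrays, against 29.2% of the other genes at that level. KO array 2 was below KO array 1 in 23 of the 27, and their medians against the FF mean were -0.24 and -0.12. None of the 27 passed a limma adjusted p of 0.05, while 7 lower and 2 higher members had an unadjusted p under 0.05. Without Rpl12, Rpl27, Rpl27a, Rpl41, Rps6 and Rpsa, the members with a probe set numbered elsewhere, the median of the remaining 21 was -0.21. The 19 members at or below the guide had a median of -0.18. Without overlap 8 of them, or 42.1%, were lower and 1, or 5.26%, higher, against 25.0% and 21.6% of all genes. This background is not matched for level. It includes the non-member genes above the guide, of which 23.9% were lower and 31.6% higher.

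**Figure D4:**
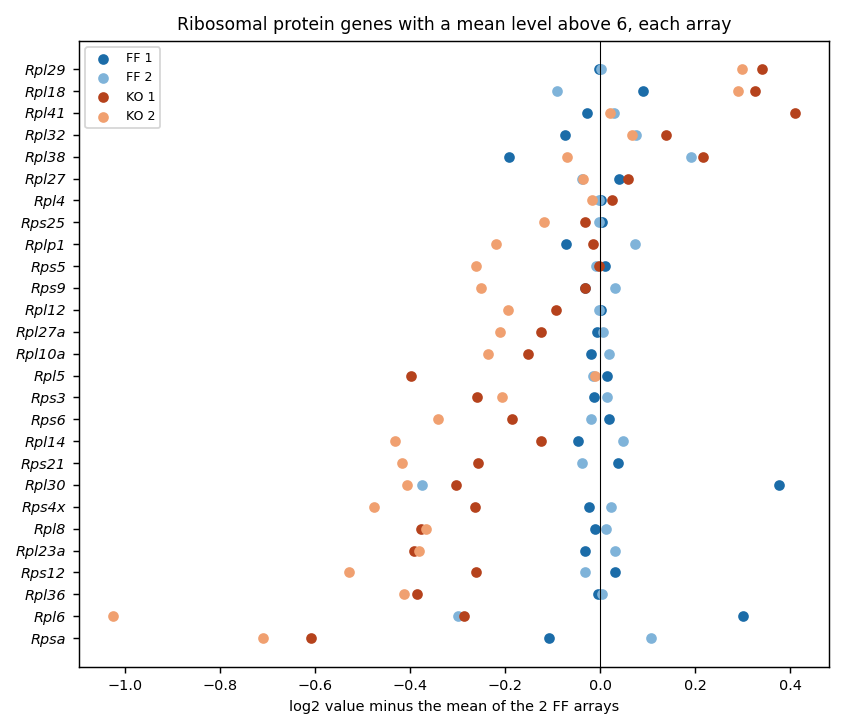
Log2 value on each array minus the mean of the FF arrays for the 27 ribosomal protein genes with a mean level above 6, ordered by their KO difference. Orange points (KO) lie left of both blue points (FF) in 14 genes and right of both in 2.

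In the small subunit, 22 of 32 members were lower by mean, where 54.0% of all genes were, with a median of -0.13. Without overlap 15, or 46.9%, were lower, against 25.0% of all genes. Rpsa, which binds the mRNA exit side of the small subunit and is also known as a laminin receptor, was at 8.23 and 8.44 in FF and 7.73 and 7.63 in KO. Its difference was -0.66 ± 0.13 (SE, limma adjusted p = 0.0816), or 63.3% of the FF level, and the KO arrays lay below the FF arrays. The dimmer Rpsa probe set numbered on chromosome 9 was also lower, at 3.57 and 3.83 in FF and 3.33 and 2.95 in KO. Snora62, a small nucleolar RNA encoded within Rpsa, was at 8.15 and 7.73 in FF and 7.14 and 6.76 in KO, a difference of -0.99 ± 0.20 (SE, limma adjusted p = 0.0856). A further small nucleolar RNA placed within Rpsa, Gm26448, was at 4.81 and 4.99 in FF and 4.90 and 4.59 in KO, so its groups overlapped. Both Rpsa probe sets and Snora62 lay lower in KO without overlap, and none passed. With limma's robust variance trend Rpsa and Snora62 passed, at adjusted p = 0.0317 and 0.0358.

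Rps12, a small subunit protein, was at 8.44 and 8.37 in FF and 8.14 and 7.87 in KO, a difference of -0.39 ± 0.14 (limma adjusted p = 0.230). Rps24, whose human counterpart is mutated in Diamond-Blackfan anaemia, was at 3.86 and 3.80 in FF and 3.31 and 3.28 in KO, a difference of -0.53 ± 0.11 (limma adjusted p = 0.0926). Both were lower in KO without overlap. Rps6, the protein that S6 kinases phosphorylate, had a difference of -0.26 ± 0.12 on its chosen probe set and -0.06 on the probe set numbered on its own chromosome. Rps3a2, also lower without overlap, was at 5.32 and 5.16 in FF and 4.52 and 4.95 in KO. In the authors' deposited table its log2 averages were 5.58 in f/f and 5.51 in Alb-cre.

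Rps13 had the most negative difference of all members, but little signal. It was at 2.89 and 3.31 in FF and 2.27 and 2.35 in KO, with both KO arrays under the guide, a difference of -0.79 ± 0.17 (limma adjusted p = 0.0919). A probe set shared by Snord14a and Rps13 differed the other way, at 3.46 and 3.67 in FF and 4.29 and 4.32 in KO. The probe set shared by Rps13 and Rps13-ps2 lay at 5.84 and 5.72 in FF and 5.37 and 5.76 in KO, where the groups overlap. Probe sets that carry the Rps13 symbol thus differed in direction, and which RNA the shared ones read was not tested.

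Of the small subunit members, 10 were higher by mean in KO, and none passed. Without overlap 3, or 9.4% of the subunit, were higher, against 21.6% of all genes. Rps23, which lines the decoding site, was at 3.23 and 3.75 in FF and 3.31 and 4.42 in KO. The groups overlapped, and leaving out one array moved its difference from -0.18 to 0.93. Rps28 was higher without overlap but lay around the guide, at 2.33 and 2.46 in FF and 2.88 and 2.58 in KO.

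In the large subunit, 26 of 41 members were lower by mean, where 54.0% of all genes were, with a median of -0.11. Without overlap 14, or 34.1%, were lower, against 25.0% of all genes. Rpl36 was at 7.09 and 7.10 in FF and 6.71 and 6.68 in KO, a difference of -0.40 ± 0.11 (limma adjusted p = 0.158). The difference is large beside the spread of its replicates, although it did not pass over all genes. Rpl23a, at 8.02 and 8.08 in FF and 7.66 and 7.67 in KO, and Rpl8, at 7.50 and 7.53 in FF and 7.14 and 7.15 in KO, were chosen after their values were seen and also had close replicates without overlap. Rpl6 had the most negative difference of the subunit, -0.66 ± 0.30, but it was at 7.62 and 7.02 in FF and 7.03 and 6.29 in KO, so the groups overlapped. Rpl37 was at 3.01 and 3.11 in FF and 2.51 and 2.68 in KO, the latter under the guide.

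Other large subunit members were level or higher. Rpl4, which lines part of the tunnel through which the new peptide leaves, was at 10.46 and 10.46 in FF and 10.48 and 10.44 in KO, with a 95% interval of -0.27 to 0.28. Rpl29 was at 6.81 and 6.81 in FF and 7.15 and 7.11 in KO, a difference of 0.32 ± 0.11 (limma adjusted p = 0.233). A probe set shared by Rpl29 with Gm8210 and Gm41995 was also higher, at 10.18 and 10.28 in FF and 10.42 and 10.46 in KO. Rpl18 was at 6.64 and 6.46 in FF and 6.88 and 6.84 in KO. Both genes were higher without overlap, against the majority of the subunit, and neither passed. Rpl15 was at 4.9985 and 4.93 in FF and 5.06 and 5.39 in KO, and lower in the authors' deposited table, with log2 averages of 5.67 in f/f and 5.49 in Alb-cre. Rpl38, known for selective translation of Hox mRNAs in mouse embryos, was at 9.06 and 9.45 in FF and 9.47 and 9.18 in KO. Rpl12, Rpl27a and Rpl41, of high level but with probe sets numbered elsewhere, had differences of -0.14, -0.17 and 0.22. Their probe sets numbered on the own chromosome had differences of -0.09, -0.07 and -0.16, so that of Rpl41 turned its direction.

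The stalk recruits elongation factors to the ribosome. Its members Rplp0, Rplp1 and Rplp2 had differences of -0.30, -0.12 and -0.36, and none passed. Rplp1 was at 8.97 and 9.12 in FF and 9.03 and 8.83 in KO, so the groups overlapped. Rplp2 was under the guide on all arrays, and a probe set it shares with Snora52 was higher, at 6.64 and 6.63 in FF and 7.39 and 6.76 in KO. Probe sets that carry the Rplp2 symbol thus differed in direction, and which RNA the shared one reads was not tested. Of the pair that can bind Mdm2, Rpl5 was at 7.52 and 7.49 in FF and 7.11 and 7.50 in KO, a difference of -0.20 ± 0.16. Rpl11 lay under the guide on all arrays, at 2.40 and 2.29 in FF and 2.79 and 2.31 in KO.

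Paralogs other than Rps27l did not pass. Rpl22l1, a paralog of Rpl22 that Rpl22 protein represses in mouse cells, was at 3.78 and 3.79 in FF and 3.76 and 3.78 in KO, with a 95% interval of -0.29 to 0.26. Rpl22 itself was at 3.20 and 3.31 in FF and 3.10 and 2.98 in KO. Rpl39l, known from the male germ line, was at 3.42 and 3.06 in FF and 3.37 and 3.72 in KO, and Rpl39 at 3.17 and 3.35 in FF and 3.12 and 2.75 in KO. Rpl3 and Rpl3l had differences of -0.20 and -0.28, and Rpl10 and Rpl10l of -0.06 and -0.20. Over the 7 paralogs the median was -0.05. Rps27l was the only one of them to pass.

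The authors' deposited table was set beside these values. It had the same direction for 24 of the 27 members with a mean level above 6, and for only 26 of the 58 members at or below that level. The median over the 85 members was -0.11 in the authors' deposited table. The deposited values thus often differ in sign for dimmer members, as for Rplp0, at 3.69 in f/f and 4.07 in Alb-cre in the authors' deposited table.

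Transcripts that share sequence or a gene with the members gave similar medians. Of 56 ribosomal protein pseudogenes, 42 were lower by mean and 26, or 46.4%, lower without overlap, against 25.0% of all genes, with a median of -0.16. Limma called 0 of them, with 11 lower and 1 higher at an unadjusted p under 0.05. The largest differences were Rps12-ps24 at -0.89 ± 0.18 (limma adjusted p = 0.0885) and Rpl29-ps5 at -0.73 ± 0.15 (limma adjusted p = 0.0856). The latter went against Rpl29 itself. Probes for a pseudogene can also bind the mRNA of its parent gene, so these values are not independent of the members. The 32 probe sets with several symbols had a median of -0.15, with 16 lower and 6 higher without overlap. Of all genes, 25.0% were lower and 21.6% higher in this way. Limma called 0 of the 32 when every probe set was tested (5 at an unadjusted p under 0.05).

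Small nucleolar RNAs are cut from introns and guide the modification of ribosomal RNA. RefSeq positions placed 30 such genes inside 18 members. Of the 30, 23 were lower by mean, and 7 were lower and 2 higher without overlap, with a median of -0.13. The 7 are 23.3% of the list, close to the 25.0% of all genes. The 2 are 6.67% of the list, against 21.6% of all genes. Limma called 0, with 4 lower and 1 higher at an unadjusted p under 0.05.

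The medians of the lists of other translation genes did not share one direction. The 9 lists together, mitochondrial ribosomal proteins included, hold 254 genes outside the members, with a median of 0.08. By mean 164 were higher and 90 lower. Without overlap 104, or 40.9%, were higher and 30, or 11.8%, lower. The shares among non-member genes with a mean level above 4 were 36.1% and 24.8%. In the authors' deposited table the median of the 254 was 0. Outside the members, 18 genes known for the same pyrimidine tract had a median of -0.08, and 10 of the 18 also stand in another list. Without overlap 6, or 33.3%, were lower and 3, or 16.7%, higher, against 24.8% and 36.1% of non-member genes with a mean level above 4. Eef2, the elongation factor that moves the ribosome along, was at 10.35 and 10.38 in FF and 9.91 and 9.79 in KO, a difference of -0.52 ± 0.12 (limma adjusted p = 0.108). Eef1b2, an exchange factor for elongation, was at 8.80 and 8.80 in FF and 8.45 and 8.38 in KO. Limma called 0 of these genes, with 4 lower at an unadjusted p under 0.05. With a variance trend Eef2 passed (limma adjusted p = 0.0350). Fau, which encodes a ribosomal protein fused to a relative of ubiquitin, had a difference of 0.11, and its groups overlapped.

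Elongation and termination factors had a median of 0.03 over 14 genes, with 3 lower and 3 higher without overlap. Each 3 is 21.4% of the list, against 24.8% lower and 36.1% higher among non-member genes with a mean level above 4. The largest difference in the list was that of Eef2k, the kinase that inhibits Eef2, at 4.35 and 3.98 in FF and 3.53 and 3.56 in KO. Initiation factors had a median of 0.16 over 38 genes. Without overlap 20, or 52.6%, were higher and 5, or 13.2%, lower. Among all non-member genes with a mean level above 4 the shares were 36.1% and 24.8%. Eif2s1, a subunit of the factor that brings the initiator tRNA, and Eif2d had differences of 0.69 ± 0.16 and 0.68 ± 0.15 (limma adjusted p = 0.109 and 0.106). Limma called 0 initiation factors, with 8 higher and 0 lower at an unadjusted p under 0.05, and 0 elongation or termination factors, with 1 higher and 3 lower.

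In the list of 62 ribosome biogenesis factors 1 gene rose, 0 fell, and 25 were higher and 3 lower without overlap, with a median of 0.08. The 25 are 40.3% of the list, near the 36.1% among all non-member genes with a mean level above 4, whose median was 0.05. The 3 lower are 4.84% of the list, against 24.8% of those genes. The gene that rose was Noc3l, a nucleolar factor, at 4.49 and 4.69 in FF and 5.47 and 5.71 in KO. Its rise was 1.00 ± 0.14 (SE, limma adjusted p = 0.0395), and among other settings it ended when every probe set was tested (limma adjusted p = 0.115) or any array was left out (0.210 to 0.377). The RNA polymerase I list, which serves ribosomal RNA, had 14 of 15 genes higher by mean and a median of 0.09. Limma called 0 of them, with 4 higher at an unadjusted p under 0.05, led by the initiation factor Rrn3 at 0.59 ± 0.13 and the subunit Polr1d at 0.58 ± 0.17.

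RNA polymerase III genes had a median of -0.08 over 22, with Gtf3c1 at 0.76 ± 0.14 and Gtf3c3 at 0.60 ± 0.13 as the largest differences. Limma called 0, with 4 higher at an unadjusted p under 0.05. The mTORC1 list had a median of 0.04 over 19 genes, with 0 called and 4 higher and 1 lower at an unadjusted p under 0.05. Its largest differences were Rragd, a Rag GTPase, at 0.83 ± 0.14 (limma adjusted p = 0.0546) and Tbc1d7, a subunit of the TSC complex, at 0.81 ± 0.13 (limma adjusted p = 0.0523). Both passed with the robust variance trend, median centring, cyclic loess and the filter on dim genes.

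Mitochondrial ribosomal proteins, which build a separate ribosome, offer the closest comparison. Of 74 genes, 49 were higher by mean, and 33 were higher and 5 lower without overlap, with a median of 0.11. The 33 are 44.6% of the list, against 36.1% of all non-member genes with a mean level above 4. The 5 lower are 6.76% of the list, against 24.8% of those genes. Limma called 0, with 14 higher and 0 lower at an unadjusted p under 0.05, and Mrpl16 and Mrpl57 had the largest differences, 0.72 ± 0.15 and 0.63 ± 0.12. The median of these genes thus lay above that of the cytosolic members, at -0.12, but was -0.02 in the authors' deposited table. The difference between these lists was not tested.

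**Figure D5:**
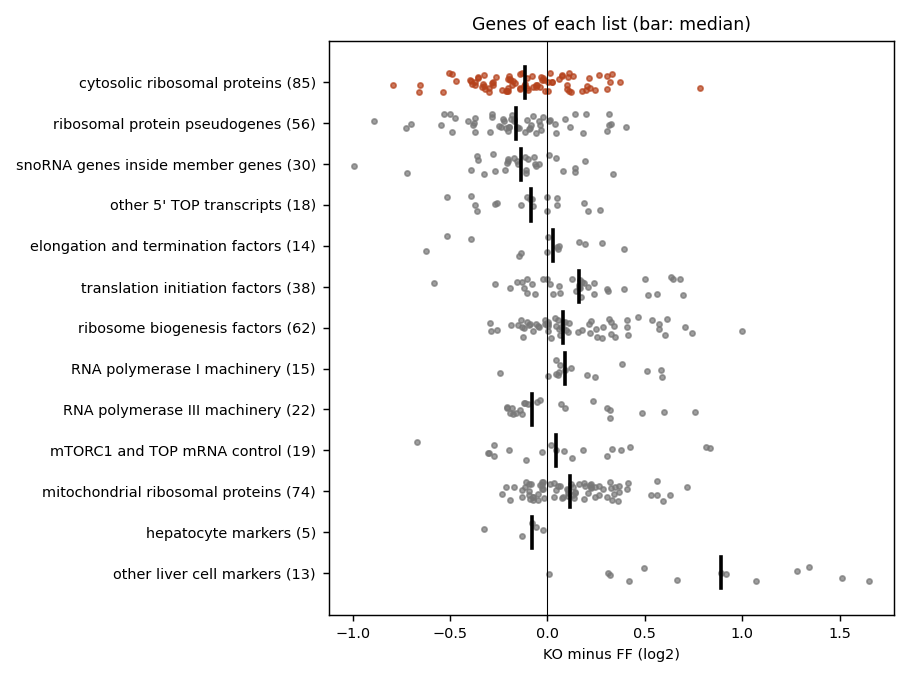
KO minus FF difference (log2) of every gene in the cytosolic ribosomal protein set (orange) and in comparison lists (grey), with a bar at each median and the number of genes in brackets. Medians run from -0.16 for pseudogenes to 0.16 for initiation factors, beside 0.89 for markers of other liver cells.

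Markers of other liver cells moved with the groups. Of 13 markers of Kupffer and immune, endothelial, stellate and duct cells, 12, or 92.3%, were higher in KO without overlap, against 21.6% of all genes. The median difference of the 13 was 0.89. Col1a1, a collagen gene, rose by 1.51 ± 0.12 (limma adjusted p = 0.00887), and the other 12 did not pass. The summed log2 level of all 13 markers was 70.2 to 70.5 in FF and 78.7 to 83.7 in KO, highest on KO array 1. None was at 0, and 1, Krt19, lay under the guide in FF. The 5 measured hepatocyte markers were lower by mean, with a median of -0.08. In whole tissue, fewer cells of a type and less RNA per cell cannot be told apart. The part of cell makeup in the values of the ribosomal protein genes was not tested.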

How the data were processed

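Liver RNA of 2 FF and 2 KO mice was measured on MoGene 2.0 ST arrays. RMA and Affymetrix Expression Console are named for the deposited log2 values in the submitters' processing notes. The authors' deposited table holds log2 averages and a signed fold change score, per the file headers, and the sources used here do not say how these were made. Symbols came from that table. Only probe sets with 1 symbol were tested, 1 per gene by highest mean. KO was compared with FF in limma 3.58.1 (R 4.3.3; lmFit, eBayes, no block), with Benjamini-Hochberg adjustment over 29432 genes and 5.79 moderated degrees of freedom. Errors are limma standard errors. Members, lists and tests were chosen with earlier results of these data known. Genes named were the called ones, the 8 largest rises and falls, the 8 highest and 5 lowest levels, and a preset list. RefSeq gives no strand for small nucleolar RNAs, which were placed by position alone. The fit was tested on simulated data. Only 4 arrays limit the precision. Some genes are not reported here.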

Additional observations from a re-analysis of the deposited data

How the results depend on the processing

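Limma called 1 ribosomal protein gene, Rps27l. That count was 0 with cyclic loess, with every probe set tested and without any single array (0 to 0), 2 with a robust variance trend, which added Rpsa, and 4 at an adjusted p under 0.1, which added Rpsa, Rps13 and Rps24. It stayed at 1 with a variance trend, median centring, the filter on dim genes, averaged probe sets and probe sets numbered on the gene's own chromosome, the last added after seeing the data. The median of the members ran from -0.15 to -0.09 without single arrays and was -0.19 for members above level 6, a choice also made after seeing the data. Of the comparison genes 1 of 254 was called. This became 4 with a variance trend, 12 with the robust trend, 5 with median centring, 4 with cyclic loess, 6 without the dimmer genes, 0 with every probe set, 15 at an adjusted p under 0.1 and 0 without any single array (0 to 0). Over all genes 522 calls became 975 with the robust trend, 850 without the dimmer genes, 34 with every probe set, 1235 at 0.1 and 0 without any single array (3364 to 3958 at an unadjusted p under 0.05), so the calls of Polr2m and Col1a1 ended there too. The labels number the replicates alike, but nothing ties equal numbers to each other. Deviations of equal numbers correlated at -0.00639 over all genes, and with the replicate block 0 members, 0 comparison genes and 30 genes in all were called. No called value changed sign under these settings.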
